A study of Mus musculus with 53 samples.

Results

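The Hox genes encode homeodomain transcription factors that are laid out in 4 clusters, Hoxa, Hoxb, Hoxc and Hoxd, on mouse chromosomes 6, 11, 15 and 2. Every gene whose symbol is Hoxa, Hoxb, Hoxc or Hoxd followed by a number was taken, each through its brightest probe set. This gave 37 Hox genes of 19938 named genes on the Mouse Gene ST arrays and 33 of 18194 on the older whole-genome arrays of the 3' type. Hoxb8 was not analysed here on either type, nor Hoxa6, Hoxc11, Hoxc12 and Hoxd4 on the 3' type. The number in a Hox name is its paralogue group: genes of equal number in different clusters descend from 1 ancestral gene. Low numbers lie at the 3' end of a cluster and high numbers at the 5' end.

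Along the body axis of the embryo, low-numbered Hox genes start to be expressed further forward and high-numbered ones further back, in the order in which they lie in the cluster. The mesenchyme and muscle of an organ usually carry much of its Hox expression, and fibroblasts keep a positional Hox pattern into adult life. Hox proteins bind DNA with TALE-class partners of the Pbx and Meis families, retinoic acid opens the clusters from their 3' ends, and Polycomb complexes keep unused genes silent.

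The study profiled whole organs on 53 arrays in 18 groups, to compare tissues with a barrier epithelium. On the 3' type of array were bladder of E18.5 embryos that were Get1 +/-, and, from wild-type CB6 embryos, bladder at E14.5 and E16.5, dorsal skin at these ages and also at E18.5, and, at E18.5, stomach, esophagus and proximal small intestine. On the Gene ST type were trachea and lung at E18.5 and whole cornea at E14.5, E15.5, E17.5, P3, P7, P14 and P28, all from wild-type CB6 mice. Each group had n = 3 arrays except bladder at E14.5 with n = 2. Get1 is another name of Grhl3, a grainyhead-like factor, and the E18.5 bladder group has no wild-type counterpart of its age here. No label ties an array to 1 animal or to a pool of animals, so the p-values measure the spread between these arrays. Whole organs were homogenised, and fewer cells of a type cannot be told apart from less RNA per cell. All levels below are log2(intensity + 16) after quantile normalization within an array type. A level of 4.00 is an intensity of 0, so folds against genes near 4.00 are understated. Levels of different genes are not set against each other because their probes differ, except for a rank of Hoxa7.

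Several arrays stood apart or went against their labels. The 26 arrays of the 3' type fell into 2 sets by their control probe sets. In the second array set (skin at E16.5 and E18.5 and intestine, 9 arrays) the 18S ribosomal RNA control lay at 4.52 to 5.71, and in the first array set (skin at E14.5, all bladder, stomach and esophagus, 17 arrays) at 10.02 to 12.46. Tests between the 2 sets cannot be told apart from the set, so the main comparisons stay within a set. The lung-labelled arrays carried all 11 thymus markers above background: Rag1, which cuts antigen receptor genes in immature lymphocytes, averaged 6.78 in trachea and 14.22 in the lung-labelled arrays. Sftpc, the surfactant gene that defines lung, averaged 7.31 in trachea and 6.83 in the lung-labelled arrays. They are called lung-labelled here. Intestine replicate 4 carried stomach and squamous markers, with Barx1 at 10.36 and Gkn1 at 10.54, and had little of the intestinal mucin gene Muc2 (5.67, against 10.15 and 10.80 in replicates 1 and 3). Dorsal skin replicates 2 and 3 at E18.5 held Sftpc at 13.73 and 13.21, against 4.07 in replicate 1. Dorsal skin at E16.5 was not free of lung signal either. The summed intensity of 8 lung markers was 301 to 6380 over its arrays, beside 199 to 23520 at E18.5. Dorsal skin replicates 1 and 2 at E14.5 held the intestinal regulator Cdx2 at 9.65 and 9.77, against 4.96 in replicate 3, and share an identifier in their titles, so they may be 1 sample run again. Cornea replicate 3 at E14.5 held the neuronal gene Elavl4 at 13.07, against 7.61 and 7.72 in the others. As a measure of RNA quality, the 5' minus 3' probe sets of Gapdh gave -3.70 on bladder replicate 3 at E18.5, against -1.19 and -1.13 on the other 2. On stomach replicate 4 they gave -2.97, against -1.47 and -1.60. On esophagus replicate 4 they gave -2.37, against -1.36 and -1.60. This measure also ran with the array set, at -3.70 to -1.13 in the first and -0.31 to 0.06 in the second. For Hox genes, calls within an array set and over the cornea ages are given with and without these single arrays. For esophagus replicate 4 only the ranges over each array left out in turn are given. Results between the 2 sets, levels, cluster means and results for other genes are given with all arrays.

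As a measure of background, the 95th percentile of the olfactory receptor genes of each array was used: 5.11 to 5.96 over 38 genes on the 3' type, and 7.58 to 8.66 over 1015 genes on the Gene ST type. A gene counted as above it in a group where every array of the group passed its own value. By this measure 20 of 33 Hox genes lay above it in bladder at E18.5, 17 in stomach, 16 in esophagus and 21 in dorsal skin at E14.5. Of the 14 genes of paralogue groups 9 to 13, 10 lay above it in bladder at E18.5, 2 in stomach, 2 in esophagus and 5 in skin at E14.5. Of the 10 genes of groups 1 to 4, 4 lay above it in bladder at E18.5, 7 in stomach, 7 in esophagus and 8 in skin at E14.5. In the second array set 18 Hox genes were above it in skin at E16.5, 16 in skin at E18.5 and 11 in intestine, where none of the 14 genes of groups 9 to 13 was. On the Gene ST arrays 10 of 37 Hox genes were above it in trachea and 6 in the lung-labelled arrays. At each of the 7 cornea ages 3 were (Hoxa4, Hoxa7 and Hoxb3). These 3 were also above it in trachea and the lung-labelled arrays, and whether their signal in cornea is expression was not tested. Some olfactory receptor genes pass this cut by its definition, and the share of all named genes above it is not given here.

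Cluster means, taken over the same probe sets in each group, differed most between bladder and the gut organs in the Hoxd cluster. The Hoxd mean was 8.02 ± 0.06 in bladder at E18.5, against 5.56 ± 0.08 in stomach and 5.91 ± 0.27 in esophagus (SD, n = 3 each). The Hoxa mean was 7.02 ± 0.07 in bladder at E18.5, against 6.10 ± 0.20 in stomach and 5.95 ± 0.03 in esophagus. The Hoxc mean ran the other way, at 6.45 ± 0.32 in bladder at E18.5, against 7.06 ± 0.03 in stomach and 6.81 ± 0.20 in esophagus. Dorsal skin at E14.5 had the highest Hoxc mean of the first array set, 7.80 ± 0.27 (n = 3), against 6.33 ± 0.35 in bladder at E14.5 (n = 2). Hoxb means lay close together, from 5.71 ± 0.15 in bladder at E16.5 to 6.31 ± 0.07 in skin at E14.5. The heat map of the first array set shows the genes behind these means.

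**Figure D1:**
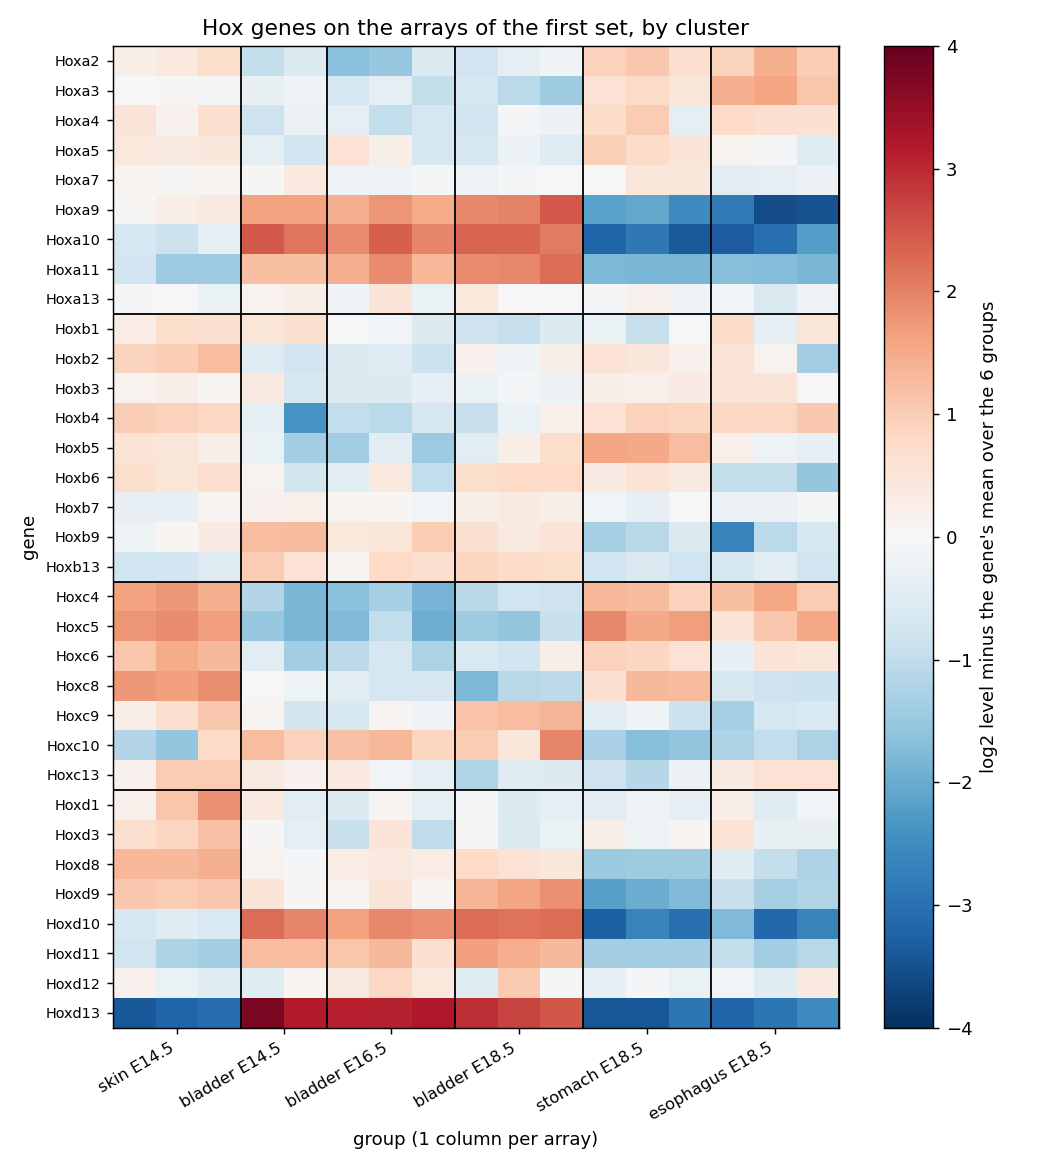
Levels of the 33 Hox genes of the 3' type of array on the 17 arrays of the first array set, drawn as each array's log2 level minus the gene's mean over the 6 groups. Genes are grouped by cluster and ordered by paralogue number, and columns run from skin at E14.5 through the 3 bladder ages to stomach and esophagus. Hoxa9 to Hoxa11 and Hoxd10 to Hoxd13 are high on the bladder arrays, apart from Hoxd12, and Hoxc4 and Hoxc5 are low there.

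Bladder at E18.5 differed from esophagus at both ends of the clusters: genes of high number were higher and genes of low number lower. A gene was called at a limma adjusted p under 0.05 and at least 2-fold. Of 33 Hox genes, 12 were called higher and 8 lower in bladder, where 6.37% of all genes tested were called higher and 4.85% lower. Among the 14 genes of groups 9 to 13, 11 were higher and 1, Hoxc13, was lower, with a median difference of 2.47. Among the 10 genes of groups 1 to 4, none was higher and 6 were lower, with a median difference of -1.05. Among the 9 genes of groups 5 to 8, Hoxd8 was higher and Hoxc5 lower. The median difference was 0.27 over all Hox genes and 0.12 over all genes. With the wild-type bladders of E16.5 in place of the Get1 +/- ones, 17 Hox genes were called against esophagus. Without bladder replicate 3, the array with the low Gapdh 5' signal, the same 20 Hox genes were called.

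Hoxd13, the last gene of the Hoxd cluster, known for its part in digits, genitals and the hindgut end of the body, read 10.34, 10.09 and 9.89 in the bladder arrays at E18.5 and 4.20, 4.49 and 4.85 in esophagus. It was bright in all bladder arrays and below the olfactory range in all esophagus arrays, a difference of 5.59 (SE 0.19, 48.1-fold, limma adjusted p = 2.44e-14). Hoxa10, required for the patterning of the uterus and lumbar spine, read 10.90, 10.89 and 10.65 in bladder and 5.23, 5.54 and 6.35 in esophagus, a 34.5-fold difference (5.11, SE 0.22, adjusted p = 1.06e-12). Hoxd10, a gene of limb and lumbar motor neuron patterning, read 10.48, 10.40 and 10.47 in bladder and 6.46, 5.09 and 5.56 in esophagus, a 26.8-fold difference. Both genes thus had groups that did not overlap. Hoxa9, best known in blood progenitors and in the axial skeleton, read 9.47, 9.53 and 9.99 in bladder and 4.72, 4.00 and 4.06 in esophagus (42.3-fold). Hoxa11, a limb and genital tract gene, read 7.70, 7.76 and 8.07 in bladder and 4.11, 4.09 and 4.01 in esophagus (13.7-fold). Hoxd9 was bright in both organs, at 10.95, 11.16 and 11.41 in bladder and 8.71, 8.26 and 8.39 in esophagus, and was still 6.6-fold higher in bladder. The other 6 higher genes were Hoxd11 (2.63), Hoxc10 (2.31), Hoxc9 (2.13), Hoxb9 (1.96), Hoxd8 (1.49) and Hoxb13 (1.43), the last not above background on all arrays of either organ. The highest-numbered genes did not all take part: Hoxa13, a hindgut and genital gene, averaged 4.72 in bladder and 4.30 in esophagus (0.42, SE 0.19, adjusted p = 0.102). Hoxd12, a gene of digits, averaged 4.65 in bladder and 4.42 in esophagus (0.23, SE 0.29, adjusted p = 0.609).

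Among the genes that were lower in bladder, Hoxa3, needed for thymus and parathyroid formation from the pharynx, read 7.73, 7.38 and 7.02 in bladder and 9.88, 10.03 and 9.55 in esophagus. The difference was -2.44 (SE 0.17, 5.44-fold, adjusted p = 1.74e-09), with a signal in both organs. Hoxc4, a gene of cervical and upper thoracic identity, read 8.10, 8.40 and 8.39 in bladder and 10.41, 10.74 and 10.21 in esophagus (-2.15, SE 0.21, 4.44-fold). Hoxc5, its neighbour, read 4.53, 4.41 and 5.05 in bladder and 6.50, 7.03 and 7.49 in esophagus (-2.35, SE 0.41, 5.09-fold). For these 3 genes no bladder array reached the lowest esophagus array. Hoxa2, which patterns the second pharyngeal arch, was lower in bladder (-1.54, SE 0.24, adjusted p = 5.83e-05). Hoxb4 (-1.23), Hoxb1 (-1.05) and Hoxa4 (-1.05) were the other low-numbered genes called, and Hoxb3 (-0.55, adjusted p = 0.0746) and Hoxd3 (-0.25, adjusted p = 0.593) were not called. Hoxb1 was not above background on all arrays of either organ.

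**Figure D2:**
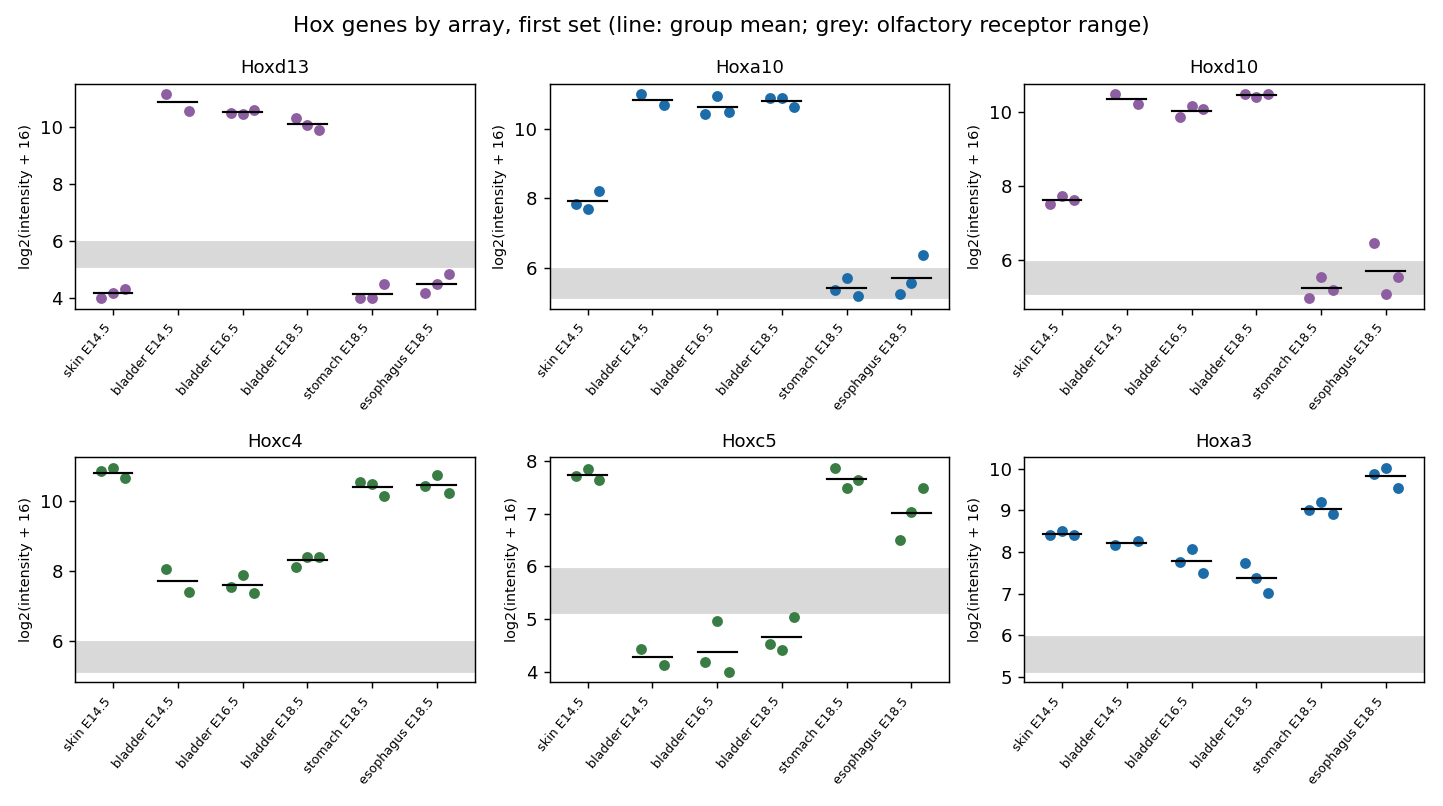
Log2 level of 6 Hox genes on each array of the first array set, with bars at the group means. Hoxd13, Hoxa10 and Hoxd10 are highest on the bladder arrays, with group means of 10.11, 10.81 and 10.45 at E18.5, whereas Hoxc4, Hoxc5 and Hoxa3 are higher in stomach and esophagus than in bladder.

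Against stomach, again 12 Hox genes were called higher and 8 lower in bladder at E18.5, where 4.79% of all genes were called higher and 5.03% lower. These 2 comparisons share the bladder arrays, so their counts are not independent. There were 20 calls without bladder replicate 3 and 20 without stomach replicate 4. Hoxd13, with the bladder values given above, read 4.00, 4.00 and 4.51 in stomach, a 61.2-fold difference (5.93, SE 0.19, limma adjusted p = 1.45e-14). Hoxa10 was 42.3-fold higher in bladder than in stomach, Hoxd10 36.8-fold and Hoxd9 11.8-fold, the last against stomach levels of 7.41, 7.60 and 7.82. Of the lower genes, Hoxc5 had an 8.01-fold difference, and Hoxc8 (-2.37), Hoxc4 (-2.08), Hoxa3 (-1.67), Hoxa2 (-1.32), Hoxb5 (-1.29), Hoxa5 (-1.21) and Hoxb4 (-1.11) were also called. Hoxc8, a thoracic gene, read 6.56, 7.27 and 7.31 in bladder and 8.97, 9.65 and 9.63 in stomach. Of groups 5 to 8, Hoxa5, Hoxb5, Hoxc5 and Hoxc8 were thus lower against stomach, and against esophagus Hoxc5 was.

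The promoters of the genes at the 2 ends of this contrast are shown because the members moved in opposite directions by their place in the cluster. RefSeq gives a start site for 22 Hox genes, Hoxb8 among them, in 24 windows on GRCm38.p6. The 250 bases upstream are printed 5' to 3' on the gene's strand. Capitals mark a match to TATAAA (the letters of a TATA box), TTTATNG (a site of posterior Hox and caudal proteins), TGATTNAT (a joint site of Hox and Pbx) or TGACAG (a Meis site). Both strands were searched, at any distance from the start, and matches on the other strand are shown as they read on the printed one. Hoxd13, higher in bladder than in both organs, lies at chr2:74667975-74668224 on the plus strand, and its 2 matches to TATAAA, 1 on each strand, overlap.
Hoxd13: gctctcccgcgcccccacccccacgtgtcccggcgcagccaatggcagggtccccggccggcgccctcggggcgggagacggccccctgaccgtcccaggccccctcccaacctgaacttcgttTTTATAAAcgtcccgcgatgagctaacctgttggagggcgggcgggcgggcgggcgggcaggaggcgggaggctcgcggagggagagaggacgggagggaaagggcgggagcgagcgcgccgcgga
Hoxa10, also higher in bladder, has 2 listed starts, and the window with a match to TATAAA is chr6:52234940-52235189 on the minus strand. That match is on the other strand, and the window of the other start, chr6:52240855-52241104, has no match to any of these motifs.
Hoxa10: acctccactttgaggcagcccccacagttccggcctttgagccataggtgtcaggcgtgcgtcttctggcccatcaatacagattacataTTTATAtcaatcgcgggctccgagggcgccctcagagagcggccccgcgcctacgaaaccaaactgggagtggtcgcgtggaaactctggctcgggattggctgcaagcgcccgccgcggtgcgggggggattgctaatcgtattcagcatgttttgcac
Hoxa3, lower in bladder, is at chr6:52213068-52213317 on the minus strand and holds 1 match to TGACAG.
Hoxa3: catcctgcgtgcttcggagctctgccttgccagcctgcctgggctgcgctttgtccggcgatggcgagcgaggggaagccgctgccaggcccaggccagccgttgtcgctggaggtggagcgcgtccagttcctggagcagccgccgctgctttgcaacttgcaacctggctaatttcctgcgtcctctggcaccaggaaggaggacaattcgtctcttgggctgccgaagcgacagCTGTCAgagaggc
Hoxa2, lower in bladder, is at chr6:52164832-52165081 on the minus strand and holds TGATTNAT and TGACAG once each.
Hoxa2: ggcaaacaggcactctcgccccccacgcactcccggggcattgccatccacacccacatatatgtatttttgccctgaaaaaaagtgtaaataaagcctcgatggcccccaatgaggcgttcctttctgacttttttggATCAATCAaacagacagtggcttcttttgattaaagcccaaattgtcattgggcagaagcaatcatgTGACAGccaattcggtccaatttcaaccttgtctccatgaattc
Hoxc4, lower in bladder, is at chr15:103034145-103034394 on the plus strand and has none of these letters.
Hoxc4: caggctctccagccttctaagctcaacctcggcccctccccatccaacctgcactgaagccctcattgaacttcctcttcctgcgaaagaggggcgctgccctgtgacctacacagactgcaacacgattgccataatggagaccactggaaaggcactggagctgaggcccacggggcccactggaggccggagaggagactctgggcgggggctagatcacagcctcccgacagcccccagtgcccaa
Of the 24 Hox windows 4 hold TATAAA, 2 TTTATNG, 2 TGATTNAT and 2 TGACAG. The window of Hoxb8, a gene not analysed on the arrays, is among those with TATAAA and those with TTTATNG. Over all 32851 RefSeq windows of the same length the shares are 12.4%, 9.81%, 2.82% and 15.9%. A match describes letters in a window and does not show that a protein binds there or that a TATAAA match serves as a TATA box.

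In the contrasts with bladder, differences followed paralogue number with wide scatter. Across the 33 genes, the difference between bladder at E18.5 and esophagus had a Pearson correlation of 0.61 with paralogue number (Spearman 0.63). It was 0.62 (Spearman 0.66) against stomach, and -0.61 (Spearman -0.63) for dorsal skin minus bladder at E14.5. It was -0.13 for stomach minus esophagus, 0.23 for skin at E18.5 minus intestine, -0.53 for trachea minus lung-labelled arrays and -0.50 for trachea minus cornea at E17.5, the last 2 over 37 genes. These are descriptions across genes, which share arrays and regulatory regions and are not independent replicates. Over the 6 group means of the first array set, 25 pairs of measured neighbours in a cluster had a median correlation of 0.76 and 30 pairs of equal number in different clusters 0.79. The 96 pairs in a cluster that were not neighbours had a median of -0.13 and the other 377 pairs -0.01. The medians were thus higher for genes of like position in their clusters than for other genes of 1 cluster, as a description over 6 points, 3 of them bladder groups.

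**Figure D3:**
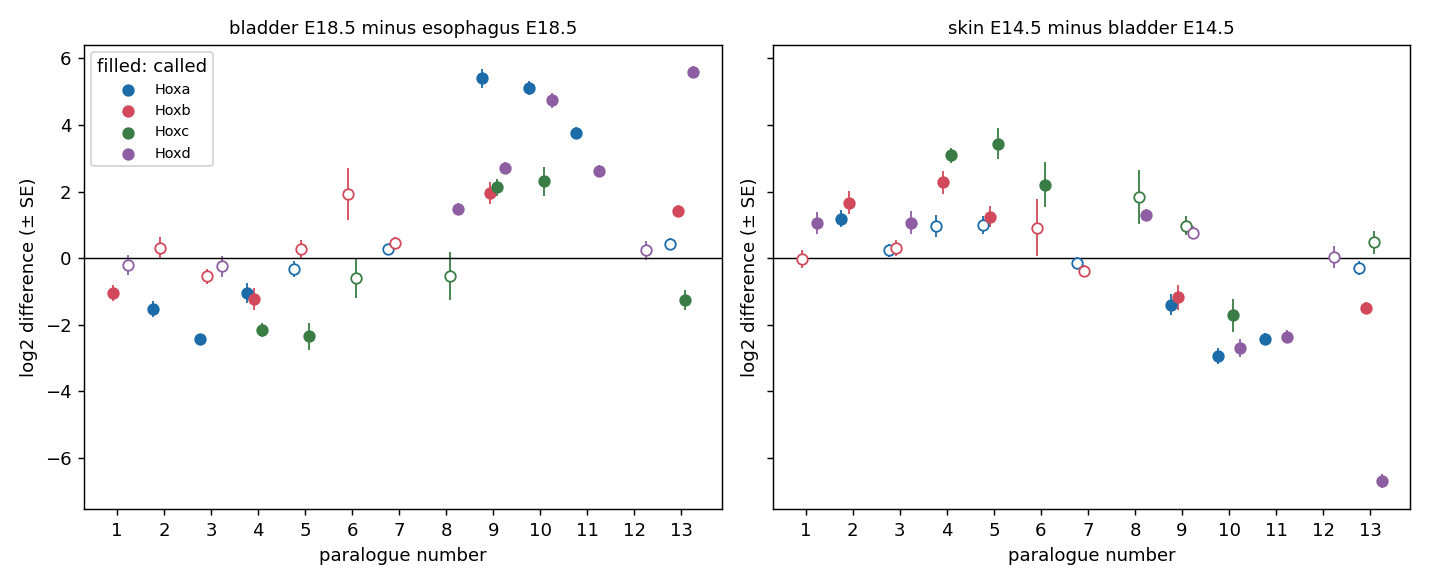
Difference in log2 level by paralogue number for bladder at E18.5 minus esophagus and for skin minus bladder at E14.5, 1 point per Hox gene with its SE, filled where called. In the bladder panel all 6 called genes of groups 1 to 4 lie below 0 and 11 of 12 called genes of groups 9 to 13 above it, and in the skin panel the order is turned round.

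At E14.5, where both organs were wild type, dorsal skin had lower levels of the high-numbered genes than bladder and higher levels of low and middle ones. Of 33 Hox genes 10 were called higher and 9 lower in skin, where 8.11% of all genes were called higher and 6% lower. All 9 lower genes were of groups 9 to 13, and the 10 higher genes were 6 of groups 1 to 4 and 4 of groups 5 to 8. Hoxd13 read 4.00, 4.18 and 4.34 in skin and 11.17 and 10.58 in bladder, a difference of -6.70 (SE 0.21, 104-fold, limma adjusted p = 1.2e-14). Hoxa10 read 7.85, 7.69 and 8.21 in skin and 11.02 and 10.69 in bladder, so that it was present in both and 7.66-fold lower in skin. Hoxd10 behaved alike, with 7.53, 7.74 and 7.63 in skin and 10.47 and 10.20 in bladder (6.51-fold lower in skin). Hoxa11 (-2.43), Hoxd11 (-2.36), Hoxc10 (-1.72), Hoxb13 (-1.49), Hoxa9 (-1.40) and Hoxb9 (-1.18) were the other genes called lower. Of these, Hoxb13 was not above background on all arrays of either organ.

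The largest rises in skin at E14.5 were in 2 neighbours of the Hoxc cluster. Hoxc5 read 7.71, 7.84 and 7.64 in skin and 4.44 and 4.13 in bladder (3.44, SE 0.46, 10.9-fold, adjusted p = 1.13e-05). Hoxc4 read 10.83, 10.94 and 10.63 in skin and 8.04 and 7.39 in bladder (3.09, SE 0.23, 8.49-fold, adjusted p = 7.92e-09). Hoxb4 was 2.28 higher, Hoxc6 2.21, Hoxb2 1.67, Hoxd8 1.30, Hoxb5 1.25, Hoxa2 1.19, Hoxd3 1.07 and Hoxd1 1.05, the last not above background on all arrays of either organ. Hoxd9 did not follow its number: it read 10.66, 10.62 and 10.66 in skin and 10.12 and 9.64 in bladder (0.77, under 2-fold). Hoxc9 was likewise higher in skin and under 2-fold (0.98). The SEs and p-values count skin replicates 1 and 2 as separate samples, although they may be 1 sample. Without skin replicate 1, 11 genes were called higher and 7 lower, and without skin replicate 2, 10 and 7. Leaving out skin replicates 1 and 2 leaves 1 skin array, which the fit assumes to vary like the other groups. It gave 8 genes called higher and 6 lower, 13 of them among the 19 called with all arrays, and Hoxc9 (1.40) in addition. Hoxd13, Hoxa10, Hoxd10, Hoxc4 and Hoxc5 were among those called, while Hoxc10 differed by -0.30, since replicate 3 read 6.84 and replicates 1 and 2 read 4.88 and 4.51. Leaving out bladder replicate 2, which leaves 1 bladder array under the same assumption, gave the fewest calls of any 1 array, 14.

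Smooth muscle markers moved with these contrasts, and their part in the result was not tested. The summed intensity of 5 smooth muscle genes was 27497 to 29870 in bladder at E18.5, 10718 to 11770 in stomach and 11105 to 13991 in esophagus. At E14.5 it was 784 to 1534 in skin and 12182 to 15433 in bladder.

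Between stomach and esophagus, neighbours along the gut, 2 of 33 Hox genes were called higher and 1 lower in stomach. These counts lay near the shares over all genes, 4.25% higher and 2.8% lower. Hoxb5, which is known in the enteric nervous system and in gut and lung mesenchyme, read 8.22, 8.17 and 7.88 in stomach and 6.86, 6.44 and 6.32 in esophagus (1.55, SE 0.28, 2.93-fold, limma adjusted p = 0.000667). Hoxa9 was 1.06 higher in stomach (SE 0.29, adjusted p = 0.0152), with levels of 5.42, 5.51 and 5.02 in stomach, near background, and 4.72, 4.00 and 4.06 in esophagus. Hoxc13, a hair and nail keratin regulator, was lower in stomach, at 4.49, 4.18 and 5.10, against 5.70, 5.91 and 5.90 in esophagus (-1.24, SE 0.31, adjusted p = 0.00839). Hoxc8 had the largest difference, 1.83, but its SE of 0.72 over all groups left it uncalled (adjusted p = 0.103). It was called when only these 2 groups were fitted, and so was Hoxb6, for 5 calls in all. Hoxa5 (0.88), Hoxa7 (0.66), Hoxd9 (-0.84), Hoxa3 (-0.78) and Hoxd8 (-0.56) had adjusted p under 0.05 and under 2-fold. The share of all genes at that looser limit is not given here. Without stomach replicate 2 only Hoxb5 was called, without stomach replicate 4 there were 3 calls, and without esophagus replicate 1 there were 5 calls.

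Within the second array set, dorsal skin at E18.5 was set against proximal small intestine. Of 33 Hox genes 10 were called higher and 3 lower in skin, where 8.99% of all genes were called higher and 10.2% lower. Hoxa7, a thoracic gene that is also expressed in epidermal keratinocytes, read 13.32, 13.68 and 13.15 in skin and 4.49, 4.28 and 4.30 in intestine, a 522-fold difference (9.03, SE 0.15, limma adjusted p = 2.3e-20). Its probe set ranked at percentiles 99.8 to 100 of all named genes on these skin arrays and 10.7 to 15.4 in intestine. Hoxa7 had only 1 probe set, so no second one could be set beside this difference. Hoxc6 read 11.48, 7.59 and 10.78 in skin and 5.45, 5.58 and 6.11 in intestine, so the groups did not overlap but skin replicate 2 stood far under the others (4.24, SE 0.60, 18.8-fold). Hoxc13 read 6.53, 7.81 and 6.70 in skin and was at 4.00 in all 3 intestine arrays, a difference of 3.01 (SE 0.31, adjusted p = 1.27e-07) against an intensity of 0. Hoxd9 (2.66), Hoxa9 (2.60), Hoxc10 (2.32), Hoxd8 (1.95), Hoxd10 (1.32), Hoxc9 (1.13) and Hoxa10 (1.12) completed the genes called higher. Of these, Hoxd10, Hoxc9 and Hoxa10 were not above background on all arrays of either group. Lower in skin were Hoxa3, at 5.50, 5.76 and 5.62, against 7.86, 7.83 and 7.90 in intestine (-2.24, SE 0.17, 4.72-fold), Hoxa4 (-1.83) and Hoxb5 (-1.48).

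**Figure D4:**
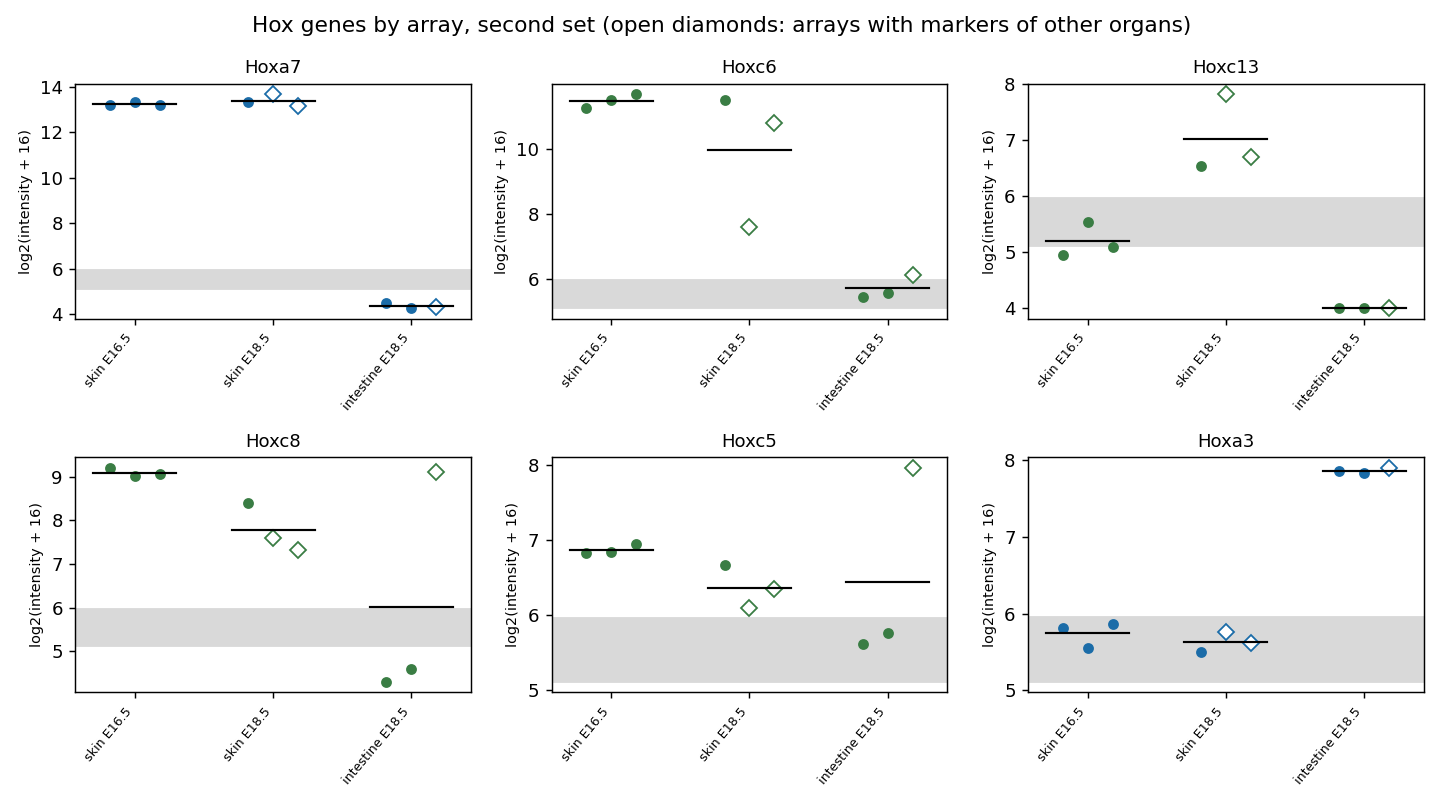
Log2 level of 6 Hox genes on each array of the second array set, with skin at E16.5 and E18.5 and intestine side by side. Open diamonds are arrays with markers of other organs. Hoxa7 lies between 13.15 and 13.68 in all 6 skin arrays and between 4.28 and 4.49 in all 3 intestine arrays, and intestine replicate 4 stands apart for Hoxc8 (9.11) and Hoxc5 (7.96).

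The intestine array with stomach markers changed single genes. Hoxc8 read 8.40, 7.60 and 7.31 in skin at E18.5 and 4.30, 4.60 and 9.11 in intestine, the last on replicate 4. The difference was 1.76 and not called (adjusted p = 0.0623) with all arrays, and 3.32 and called (SE 0.27, adjusted p = 1.53e-09) without replicate 4. Hoxc5 likewise read 5.61 and 5.76 on replicates 1 and 3 and 7.96 on replicate 4. Leaving out this array and skin replicates 2 and 3 leaves 1 skin array, again assumed to vary like the other groups. All 13 genes were called there, and Hoxc8 (3.95) and Hoxb6 (2.54) were added. Hoxb6 read 8.64, 8.87 and 5.16 in skin and 4.55, 7.65 and 8.31 in intestine, with no order between the groups. Muscle and mesenchyme markers moved with skin against intestine, and their part in the result was not tested. The summed intensity of 7 skeletal muscle genes was 23672 to 33849 in skin and 544 to 1336 in intestine, that of 5 smooth muscle genes 2649 to 4002 and 13731 to 24363, and that of 6 fibroblast and mesenchyme genes 22699 to 29921 and 11642 to 18471.

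Calls between ages inside a set were few for Hox genes and for all genes alike. Between skin at E18.5 and E16.5, 1 of 33 Hox genes was called, against 4.44% of all genes. Hoxc13 was higher at E18.5, 6.53, 7.81 and 6.70, against 4.95, 5.54 and 5.08 at E16.5 (1.82, SE 0.31, 3.54-fold, limma adjusted p = 0.000343), and differed by 1.34 (adjusted p = 0.0429) without skin replicates 2 and 3, a setting with 1 array at E18.5 that is assumed to vary like the other groups. No skin array at E16.5 was left out for its lung markers. Hoxa7 was as bright at E16.5, at 13.19, 13.32 and 13.21. Without skin replicate 1 at E18.5, Hoxc6 was called too. In bladder, E16.5 minus E14.5 gave 0 calls among 33 Hox genes by limma, against 0.341% of all genes, with 4 at an unadjusted p under 0.05, 0 with a trended and robust fit, and 1 (Hoxb4) when bladder replicate 1 at E14.5 was left out, with the 1 array left at that age assumed to vary like the other groups. The share of all genes at an unadjusted p under 0.05 is not given here. The gene nearest a call was Hoxb1 (-0.79, adjusted p = 0.263).

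Bladder at E18.5 minus E16.5 gave 3 calls, all higher, against 6.14% of all genes called, but the E18.5 bladders were Get1 +/- and the E16.5 ones wild type, so age and genotype cannot be told apart. Without bladder replicate 3 at E18.5 there were 2 calls. Hoxd9 read 10.95, 11.16 and 11.41 at E18.5 and 9.70, 10.10 and 9.66 at E16.5 (1.36, SE 0.17, 2.56-fold, adjusted p = 2.3e-05). Hoxc9 read 6.46, 6.57 and 6.70 at E18.5 and 4.69, 5.43 and 5.20 at E16.5 (1.47, SE 0.25, 2.78-fold). Hoxb5 was 1.25 higher at E18.5, but its arrays overlapped, at 6.19, 6.87 and 7.35 and at 5.27, 6.20 and 5.19. Hoxd13 averaged 10.87 at E14.5, 10.52 at E16.5 and 10.11 at E18.5, and was called in neither step (adjusted p = 0.684 and 0.151). Grhl3 itself averaged 7.49 ± 0.19 at E18.5 and 7.03 ± 0.31 at E16.5 (SD, n = 3 each). Its limma adjusted p of 0.801 uses the spread over all groups, among them intestine with an SD of 3.36. That p-value therefore cannot show a lack of change in bladder.

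Across the 2 array sets the calls were many for Hox genes and for all genes alike. Intestine minus stomach gave 16 Hox genes called, 4 of them higher, with 45.6% of all genes called in either direction. Hoxc4 averaged 6.00 in intestine and 10.38 in stomach (-4.38), and Hoxb7 6.71 and 4.17 (2.55). Bladder at E18.5 minus intestine gave 19 (45.2% of all genes), with Hoxa10, Hoxd9 and Hoxd10 the largest, at 6.76, 6.32 and 6.29. Skin at E18.5 minus bladder at E18.5 gave 21 (46% of all genes), and skin at E18.5 minus esophagus gave 16 (48.9% of all genes). Skin at E16.5 minus E14.5 gave 20 (43.2% of all genes): Hoxa7 averaged 13.24 at E16.5 and 6.27 at E14.5 (6.97), and Hoxc4 averaged 6.77 and 10.80 (-4.03). The step between these ages differed between skin and bladder for 13 Hox genes by an interaction term, beside 42.2% of all genes. Each of these differences cannot be told apart from the array set. Over the 5 tissues at E18.5 the F test called 28 of 33 Hox genes, beside 71.1% of all genes.

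On the Gene ST arrays, few Hox genes were called higher in trachea, near or under the share over all genes. Those called had numbers from 2 to 5. Against lung-labelled arrays, trachea had 2 of 37 Hox genes called higher and 0 lower, where 10.8% of all genes were called higher and 5.26% lower, a share above that of the Hox genes. Hoxd3, a gene of the neck and base of the skull, read 9.43, 10.02 and 9.42 in trachea and 8.28, 8.40 and 8.25 in lung-labelled arrays (1.32, SE 0.16, 2.49-fold, limma adjusted p = 3.03e-07). Hoxa5, whose loss in mice is known to disturb the trachea and lung, read 9.03, 8.96 and 8.85 in trachea and 7.75, 7.70 and 7.74 in lung-labelled arrays (1.22, SE 0.19, 2.32-fold, adjusted p = 1.16e-05). Trachea thus lay above every lung-labelled array for both genes. Hoxa2 (0.95), Hoxb2 (0.77), Hoxb4 (0.73) and Hoxc4 (0.60) were higher at an adjusted p under 0.05 and under 2-fold, as were Hoxa3 (0.48) and Hoxd4 (0.38). At the same limit and also under 2-fold, 8 genes were lower in trachea. They were Hoxa10 (-0.54), Hoxc12 (-0.51), Hoxa11 (-0.48), Hoxb7 (-0.46), Hoxb13 (-0.37), Hoxb1 (-0.36), Hoxc6 (-0.34) and Hoxa9 (-0.27). The shares of all genes at this looser limit are not given here, so these numbers of genes cannot be read against the general rate. The median difference was 0.48 over the 11 genes of groups 1 to 4, -0.14 over the 10 of groups 5 to 8 and -0.19 over the 16 of groups 9 to 13, beside -0.06 over all genes. The summed intensity of the 11 thymus markers was 1510 to 1547 in trachea and 80178 to 81235 on the lung-labelled arrays, and cell content cannot be told apart from organ position here.

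Against cornea at E17.5, 4 of 37 Hox genes were called in trachea, all higher, where 9.56% of all genes were called higher and 8.24% lower. The count of higher genes thus lay near the share over all genes. Hoxa2 read 9.36, 9.23 and 8.54 in trachea and 7.06, 6.29 and 7.16 in cornea (2.21, SE 0.22, 4.61-fold, adjusted p = 1.37e-08). Hoxd3 was 1.81 higher (3.5-fold), Hoxa5 1.53 (2.9-fold) and Hoxb4 1.06 (2.09-fold, with 8.28, 8.10 and 8.05 in trachea and 7.04, 7.15 and 7.05 in cornea). On every trachea array these 4 genes lay above that array's own olfactory percentile, which did not hold for the cornea arrays at E17.5. Organ markers moved with this contrast and their part in the result was not tested: the summed intensity of 7 trachea and cartilage genes was 52246 to 59141 in trachea and 2627 to 3444 in cornea, that of 5 smooth muscle genes 11463 to 18395 and 1862 to 4823, and that of 6 fibroblast and mesenchyme genes 38555 to 39679 and 22249 to 29601. Lung-labelled arrays minus cornea at E17.5 gave 1 call, Hoxa2 (1.25, SE 0.22), beside 23.6% of all genes, and without cornea replicate 2 the difference was 0.98 and no Hox gene was called. The cornea arrays came from an earlier study, per the series text, and the median deposited intensity was 178.6 to 190.9 on the trachea and lung-labelled arrays and 213.8 to 272.8 on the cornea arrays, so study and organ cannot be told apart here.

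**Figure D5:**
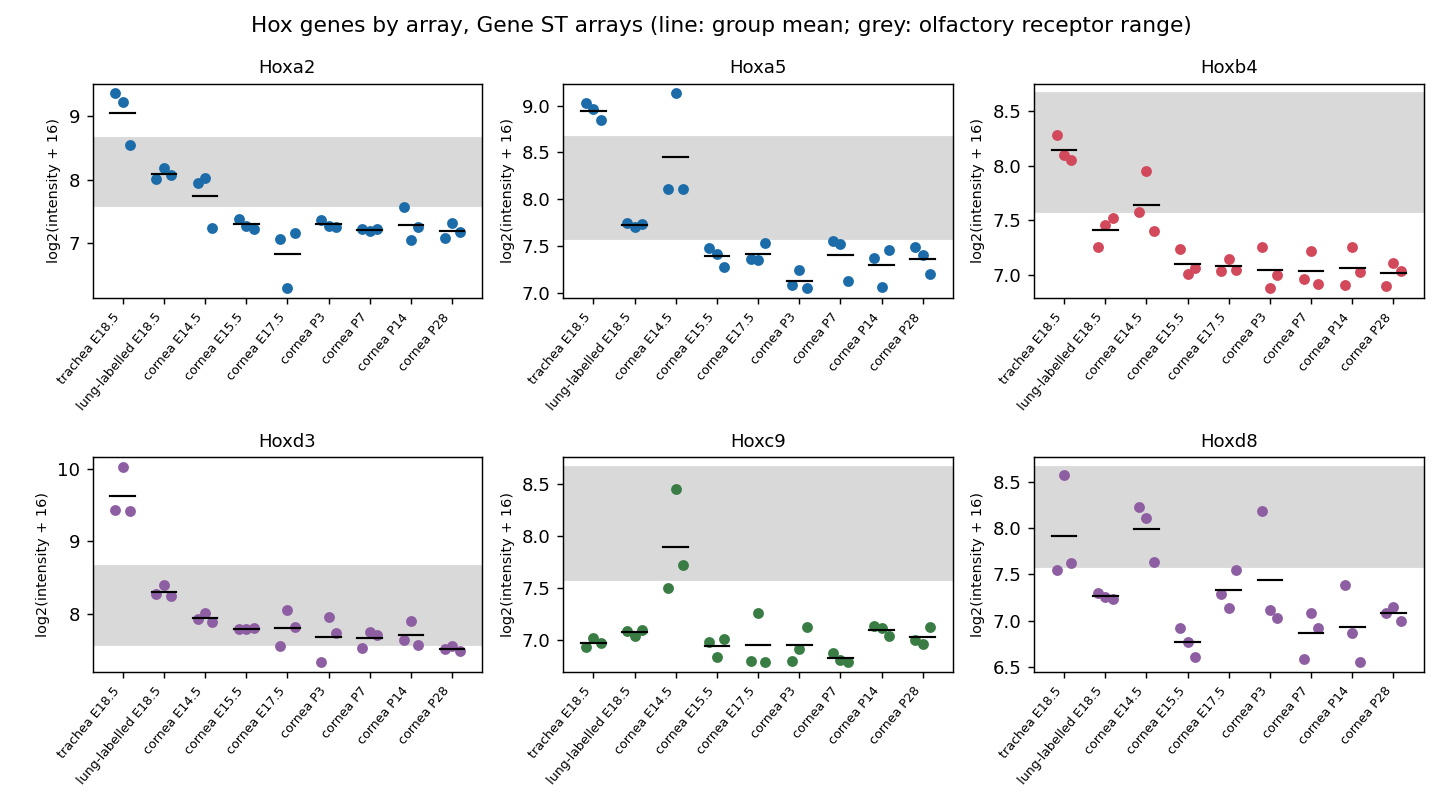
Log2 level of 6 Hox genes on each of the 27 Gene ST arrays, with the range of the olfactory background over arrays in grey. Hoxa2, Hoxa5, Hoxb4 and Hoxd3 are highest in trachea among the E18.5 organs, and Hoxa5, Hoxc9 and Hoxd8 are highest at E14.5 among the cornea ages.

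In cornea, no Hox gene but Hoxa4, Hoxa7 and Hoxb3 was above background on all arrays of any of the 7 ages, and 3 of 37 were called over the 7 ages, beside 21.7% of all genes. Hoxa5, with a range of group means of 1.32 (limma F test, adjusted p = 7.9e-05), read 8.11, 9.13 and 8.11 at E14.5 and 7.48, 7.42 and 7.28 at E15.5, and no later array passed 7.56. Hoxc9 read 7.50, 8.45 and 7.72 at E14.5 and 6.98, 6.84 and 7.01 at E15.5 (range of means 1.06, adjusted p = 0.000165). Hoxd8 read 8.23, 8.11 and 7.63 at E14.5 and 6.92, 6.77 and 6.61 at E15.5 (range of means 1.22, adjusted p = 0.00697), but 1 P3 array read 8.18. All 3 genes were thus highest at E14.5 by mean. The cell content of these arrays moved with the ages, and its part in the result was not tested. Of 5 cornea markers 1 was above background at E14.5 and 5 at E15.5, with a summed intensity of 3786 to 5831 at E14.5 and 25528 to 33908 at E15.5. That of 6 fibroblast and mesenchyme genes was 1758 to 8545 at E14.5 and 25000 to 28938 at E15.5. Red cell genes ran the other way, at 32590 to 48819 and 603 to 2139, as did neuronal genes, at 2264 to 23521 and 486 to 1428. Cornea replicate 2 at E14.5 decided much of this: without it Hoxa5 (0.98) and Hoxc9 (0.78) were not called and Hoxd8 (1.16) was. Hoxc8 stood at 8.59 on that array and at 6.98 and 6.85 on the other E14.5 arrays. Without replicate 3, the array with neuronal markers, 5 Hox genes were called, adding Hoxa2 and Hoxc8.

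Second probe sets bore on how far single folds can be read. Of the 33 genes on the 3' type of array, 11 had more than 1 probe set. Within an array set, 29 of 30 calls of such genes had the same sign in the second-brightest probe set, but not the same size. For bladder at E18.5 minus esophagus, the second probe set of Hoxd13 gave 0.43 at a mean level of 4.42, that of Hoxa9 1.01 and that of Hoxa10 0.67, beside 5.59, 5.40 and 5.11 for the brightest. Across the array sets fewer calls had the same sign: 3 of 6 for skin at E18.5 minus esophagus, 5 of 8 for skin minus bladder at E18.5, and 5 of 7 each for bladder minus intestine, intestine minus stomach and skin at E16.5 minus E14.5. For bladder at E18.5 minus intestine the second probe set of Hoxd13 gave -0.47, beside 5.95 for the brightest. Within the first array set, for bladder at E18.5 minus esophagus, the pairs of Hoxa3 and Hoxd8 were closer. They were -1.94 and 1.14 in the second probe set beside -2.44 and 1.49 for the brightest.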

How the data were processed

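Each deposited number is the intensity of a probe set. The authors obtained these intensities, per the submitters' processing notes, with PLIER 2.0 and Affymetrix Expression Console 1.1.1. How arrays were scaled to each other before deposit is not stated in those sources. Per the labels' protocols, Trizol RNA of all arrays was copied with random hexamers with the Ambion WT kit. The 2 array types were analysed separately.

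From these deposited intensities log2(intensity + 16) was computed and quantile-normalized within each type. Probe sets with 1 gene in the platform annotation were used, the brightest per gene. Groups were compared with limma 3.58.1 in R 4.3.3 (linear models with empirical Bayes over all groups of an array type, two-sided, Benjamini-Hochberg over all genes), and a gene was called at adjusted p under 0.05 and at least 2-fold. The 53 arrays limit the precision. The procedure was tested on simulated data. Promoter windows came from RefSeq (GRCm38.p6) and were matched by symbol.

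The Hox genes, the lists of other genes and the tests were chosen with earlier results of these data known. The 2 array sets, the comparison of bladder with stomach and the settings without arrays that carry markers of other organs were chosen after seeing the data. Any Hox gene could be named, and of a list of other genes up to 4 called members per comparison. Equal replicate numbers were taken to pair arrays only where all correlations of deviations passed 0.1, which held for cornea P14 and P28 alone. Alternatives were the values as deposited, another pseudocount, a filter on dim genes, the mean of probe sets, a trended robust fit, only the groups compared and no fold limit. Further ones were a replicate block, skin replicates 1 and 2 at E14.5 averaged, arrays of 1 set only, and each array left out in turn.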

Additional observations from a re-analysis of the deposited data

Results flagged for a closer look

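Between E14.5 and E16.5, dorsal skin and bladder changed differently for 13 of 33 Hox genes by the limma interaction term, beside 42.2% of all genes. The skin arm runs across the 2 array sets and the bladder arm does not, so age and array set cannot be told apart for any of these genes. The difference of the changes (skin minus bladder, log2) was positive for Hoxa7 (7.31), Hoxc6 (3.06), Hoxb7 (2.45) and Hoxb2 (1.68). It was negative for Hoxc4 (-3.91), Hoxd8 (-3.78), Hoxd9 (-3.08), Hoxa10 (-2.98), Hoxa3 (-2.27), Hoxb4 (-1.74), Hoxd10 (-1.61), Hoxb9 (-1.59) and Hoxb5 (-1.22). Hoxa7 averaged 6.27 in skin at E14.5 and 13.24 at E16.5, and in bladder 6.41 and 6.07.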

How the results depend on the processing

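Counts of called Hox genes stayed within 1.5 times of the reported count in most settings. With no fold limit, stomach minus esophagus gave 8, trachea minus lung-labelled 16, trachea minus cornea 15, lung-labelled minus cornea 9 and cornea ages 14. Skin at E18.5 minus E16.5 gave 2 in that setting, and bladder at E18.5 minus E16.5 gave 5. The shares of all genes with no fold limit are not given here, so these counts cannot be read against the general rate. Stomach minus esophagus gave 5 with only the groups compared, with the replicate block and within 1 array set. Skin at E18.5 minus E16.5 gave 2 with a pseudocount of 1 (adding Hoxa11) and with only the groups compared (adding Hoxc8). Cornea ages gave 1 (Hoxa5) with dim genes left out. The replicate block changed no other call count by over 1.5 times: it gave 2 for trachea minus lung-labelled and 3 for cornea ages. The replicate numbers did not pair trachea with lung-labelled or stomach with esophagus arrays, and among the cornea ages they did so for P14 and P28 alone.

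Leaving out each array in turn gave 18 to 20 calls for bladder minus esophagus, 17 to 20 for bladder minus stomach, 14 to 19 for skin minus bladder at E14.5, 13 to 14 for skin minus intestine, 1 to 5 for stomach minus esophagus, 1 to 2 for skin at E18.5 minus E16.5, 0 to 1 for bladder at E16.5 minus E14.5, 2 to 4 for bladder at E18.5 minus E16.5, 2 to 3 for trachea minus lung-labelled, 3 to 4 for trachea minus cornea, 0 to 1 for lung-labelled minus cornea and 1 to 5 for cornea ages. Across array sets 5 single genes changed sign. In skin at E18.5 minus esophagus, with the mean of probe sets, these were Hoxb4 (0.08) and Hoxd8 (0.10). In skin at E16.5 minus E14.5, with that mean, they were Hoxa5 (-0.19) and Hoxb4 (0.29). In skin minus bladder it was Hoxc9 (0.29), with bladder of E16.5 in place of E18.5. The cause of these changes was not tested. Dim probe sets, whose levels lie near that of an intensity of 0, limit what folds can show.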

Other observations

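Probe sets annotated to antisense transcripts of the clusters gave values of their own. Hoxa11os averaged 8.24 in bladder at E18.5 and 4.24 in esophagus (4.00, SE 0.17, 16-fold, limma adjusted p = 8.74e-13), and it averaged 4.00 in skin and 7.53 in bladder at E14.5 (-3.53, adjusted p = 3.41e-11). Hoxa11 moved the same way in both comparisons, at 3.77 and -2.43. Hoxb5os averaged 7.35 in stomach and 5.07 in esophagus (2.28, SE 0.32, 4.86-fold, adjusted p = 3.44e-05), where Hoxb5 differed by 1.55. Hoxd3os1 averaged 5.00 in stomach and 6.39 in esophagus (-1.39, adjusted p = 0.000349), where Hoxd3 differed by 0.06 and was not called. Whether these probe sets read 1 strand only was not tested.

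Other genes of the Hox system were counted in the same tests, where 6.37% of all genes were called higher and 4.85% lower in bladder than in esophagus, and 8.11% higher and 6% lower in skin than in bladder at E14.5. Of 8 measured TALE cofactors, 1 was higher in bladder at E18.5 than in esophagus (Pknox2, 1.18), and 4 were lower in skin than in bladder at E14.5: Meis2 (-1.81), Pknox2 (-1.76), Meis1 (-1.73) and Pbx4 (-1.27). The median of this list was 0.10 and -1.02 in these 2 comparisons, beside 0.12 and 0.05 over all genes. Of 21 Polycomb and trithorax genes, 0 were called by limma in either comparison. Of 11 retinoid genes, 3 were higher and 2 lower in bladder than in esophagus, among them Crabp1 (3.91), a retinoic acid binding protein, and Cyp26a1 (-2.02), which degrades retinoic acid. In skin against bladder at E14.5, 2 were higher and 5 lower, among them Aldh1a2 (-3.98), which makes retinoic acid. Of 6 ParaHox and caudal genes, Cdx2 (-4.96), Cdx1 (-4.70) and Pdx1 (-2.90) were lower in skin at E18.5 than in intestine and Gsx1, Gsx2 and Cdx4 were not called, beside 10.2% of all genes called lower. In trachea, 4 of 8 TALE cofactors were higher than on lung-labelled arrays, with Meis1 at 1.55, and 3 of 21 Polycomb and trithorax genes were lower, with Ezh2 at -1.69, beside 10.8% of all genes called higher and 5.26% lower and the thymus markers given above.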
